A study of Mus musculus with 8 samples.

Results

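The GABA genes examined here were Gad1, Gad2 and Slc32a1, which make and package GABA, and Slc6a11, Abat and Aldh5a1, which take it up and break it down. These 6 genes were listed by name for their roles, with no threshold on a measured value, from the 14353 genes measured in ventral pallidum (VP) of vGluT2-Cre x RiboTag mice, and all 6 were present and passed the filter on low values. In these mice Cre is made from the Slc17a6 locus, which encodes the vesicular glutamate transporter vGluT2, and Cre places a hemagglutinin tag on the ribosomal protein Rpl22. All mice were untreated, carried VGluT2-Cre on both alleles and the Rpl22 allele on 1, and were pooled across sexes, with 38 mice (15 male and 23 female) by the sample labels in the 4 pools analysed here, each of 7 to 11 mice. Mice of pool VP1.6 were 9 to 12 weeks old and those of the other 3 pools (VP2.2, VP2.6, VP2.11) were 10 to 16 weeks old. Each pool gave 1 TRAP library, of mRNA pulled down with tagged ribosomes and labelled as glutamatergic neurons, and 1 INPUT library, labelled as all neurons and glia. The protocols describe an INPUT taken from the lysate before the beads, although the sequencing methods name an unbound fraction. The recombined allele is permanent, so a cell that used Slc17a6 only earlier in life also carries the tag. The methods allow that punches held some neighbouring striatum. They add that this tissue lacks vGluT2 and for that reason would not enter the pull-down.

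GABA is made from glutamate by 2 glutamic acid decarboxylases, the product of Gad1 throughout the cytosol and that of Gad2 mostly at the synapse, and the vesicular transporter encoded by Slc32a1 loads it into vesicles. After release it is cleared by plasma membrane transporters, of which the one encoded by Slc6a11 (GAT3) is made mainly by astrocytes. The mitochondrial transaminase encoded by Abat converts GABA to succinic semialdehyde, and the dehydrogenase encoded by Aldh5a1 oxidises this to succinate, which enters the tricarboxylic acid cycle. Both enzymes are found in neurons as well as in glia. Most VP neurons are GABAergic, and VP is surrounded by striatal territory rich in GABAergic medium spiny neurons.

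The levels given are CPM, by definition read counts scaled to the size of the library, taken from the deposited log2 CPM values. They are given as mean ± SD over the 4 libraries of a fraction, and each difference is TRAP minus INPUT on the log2 scale. Among genes of low level, the steps that whole reads leave showed in the differences of VP2.2 and VP2.6 but not in single libraries. Both libraries of a pool may thus carry a shared shift per gene, and levels of single libraries may not be plain scaled counts. How this arose was not resolved. Differences were tested across all 14249 genes over 1 CPM in at least 3 libraries with limma, in a fit of the fraction only and in another that adds the pool as a block, and a gene was called at a Benjamini-Hochberg adjusted p under 0.05. Pools are the replicates, and the fit with the block sets each difference against its spread between pools. The fit without the block and the exact permutation test ignore the pairing. Their p-values measure the spread between libraries within a fraction. Libraries of a pool deviated in opposite directions across genes (r -0.745 to -0.495), which widens the spread of the differences. The p-values that ignore the pairing can therefore be too small. Without the block 6830 genes were called, and with it 4592. Of the 6 genes, Aldh5a1 was called higher in TRAP, Slc32a1 and Slc6a11 were called lower, and Gad1, Gad2 and Abat were not called, in both fits. Over all genes, 23.2% were called higher and 24.8% lower without the block, and 15.4% higher and 16.8% lower with it, so calls as such were common in this comparison and 1 gene higher and 2 lower of 6 do not set the GABA genes apart. In a bulk pull-down, fewer cells of a type and less RNA per cell cannot be told apart.

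The 3 genes called are shown with the 250 bases before their start, since they are the members for which the fractions separated. These sequences are from RefSeq (GRCm38.p6), in which 5 of the 6 genes matched an entry and Abat did not. Capitals mark the letters GGGCGG on either strand, the core of the GC box bound by Sp1-type factors.
Slc32a1, chr2:158610508-158610757, plus strand: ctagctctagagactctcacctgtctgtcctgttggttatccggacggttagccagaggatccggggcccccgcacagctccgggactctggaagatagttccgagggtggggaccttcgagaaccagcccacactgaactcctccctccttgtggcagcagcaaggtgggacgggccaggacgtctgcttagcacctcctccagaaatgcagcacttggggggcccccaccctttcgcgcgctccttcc
Slc6a11, chr6:114130991-114131240, plus strand: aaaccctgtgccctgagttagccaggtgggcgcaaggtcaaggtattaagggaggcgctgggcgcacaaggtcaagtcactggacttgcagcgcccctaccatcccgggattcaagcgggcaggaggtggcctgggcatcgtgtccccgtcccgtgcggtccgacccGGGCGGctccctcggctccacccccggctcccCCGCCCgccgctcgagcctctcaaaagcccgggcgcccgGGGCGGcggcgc
Aldh5a1, chr13:24937662-24937911, minus strand: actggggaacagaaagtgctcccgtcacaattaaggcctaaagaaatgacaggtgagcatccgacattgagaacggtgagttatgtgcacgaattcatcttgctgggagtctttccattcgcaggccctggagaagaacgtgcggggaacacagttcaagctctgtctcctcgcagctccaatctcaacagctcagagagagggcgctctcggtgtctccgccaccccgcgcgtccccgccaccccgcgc
The Slc6a11 window held 3 matches to GGGCGG, and the windows of Slc32a1 and Aldh5a1 held none. Of 32851 promoter windows of this length, 32.7% held at least 1 match. None of the 3 windows held TATAAA (12.4% of windows), TAATTA (4.8%) or CAGCTG (13%), searched on both strands. The windows of Slc32a1, Slc6a11 and Aldh5a1 had GC contents of 62.4%, 71.2% and 57.2%, against a median of 52.4%. A match is a description of the letters and was not related to the levels.

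Gad1 (ENSMUSG00000070880; chromosome 2, 70553072 to 70602014, GRCm38) was among the most abundant of the 6 genes in both fractions. Taking the pools in the order VP1.6, VP2.2, VP2.6, VP2.11, which is kept for the other genes, its level was 514, 828, 566 and 545 CPM in TRAP and 630, 263, 578 and 592 CPM in INPUT. TRAP was slightly below INPUT in VP1.6, VP2.6 and VP2.11, whereas in VP2.2 it was well above, and the fractions overlapped. The means were 613 ± 145 CPM in TRAP and 516 ± 170 CPM in INPUT (SD, n = 4), a difference of 0.30 (95% interval with the block -0.34 to 0.94). This was not called (limma adjusted p = 0.39 without and 0.47 with the block, exact two-sided permutation test over libraries p = 0.571). Without VP2.2 the difference was -0.15 (limma adjusted p = 0.20 without and 0.57 with the block).

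Gad2 (ENSMUSG00000026787; chromosome 2, 22622205 to 22693874) showed the same arrangement of pools. Its TRAP libraries held 397, 730, 492 and 491 CPM and its INPUT libraries 729, 298, 613 and 600 CPM, in the same order of pools. TRAP was the lower fraction in 3 pools and the higher in VP2.2. The means were 528 ± 142 CPM in TRAP and 560 ± 184 CPM in INPUT (SD, n = 4), and the difference of -0.05 (95% interval with the block -0.70 to 0.60) was not called (limma adjusted p = 0.90 without and 0.92 with the block; exact permutation p = 0.943). Leaving out VP2.2 moved it to -0.49, which passed the threshold without the block (limma adjusted p = 0.016) and missed it with the block (0.079). The call on Gad2 thus rested on whether VP2.2 was kept and, without VP2.2, on the block.

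Slc32a1 (ENSMUSG00000037771; chromosome 2, 158610767 to 158615748), whose product packages GABA, was lower in TRAP. The TRAP libraries held 7.22, 15.5, 12.2 and 8.75 CPM, and the INPUT libraries 34.8, 23.5, 22.7 and 21.3 CPM. Every TRAP library lay below all INPUT libraries (p = 0.029 by a two-sided exact permutation test, which can give no smaller p with 4 libraries against 4), as did those of 24.4% of all genes, and the reverse held for 23.3%. The mean fell from 25.5 ± 6.22 CPM in INPUT to 10.9 ± 3.71 CPM in TRAP (SD, n = 4), 2.39-fold on the fitted scale, with a difference of -1.26 (standard error 0.26 without and 0.30 with the block; limma adjusted p = 0.0027 and 0.0055). The within-pool differences spread widely, from -2.27 in VP1.6 to -0.60 in VP2.2, and with VP2.2 left out the difference was -1.48 (limma adjusted p = 0.0039 without and 0.0051 with the block). In a further fit, the trend over exon length was removed from the TRAP minus INPUT differences of each pool. The difference of Slc32a1 was then -1.13 and was no longer called (limma adjusted p = 0.064). The gene rested on few reads in TRAP, about 190 in VP2.2 and 150 in VP2.6, and an antisense gene, Gm14205, overlaps 24.92% of its exon bases; whether counting used strand is not given in the sources used here.

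Slc6a11 (ENSMUSG00000030307; chromosome 6, 114131241 to 114249952), the astrocytic GABA transporter, was lower in TRAP by nearly the same amount as Slc32a1 but far more evenly. Its TRAP libraries held 17.6, 18.2, 15 and 13.8 CPM, and its INPUT libraries 38.6, 50.2, 38.4 and 30.9 CPM. No TRAP library reached the lowest INPUT library (exact permutation p = 0.029). The mean was 16.2 ± 2.09 CPM in TRAP and 39.5 ± 7.96 CPM in INPUT (SD, n = 4), a fall of 2.42-fold, with a difference of -1.28 (standard error 0.17 without and 0.23 with the block; limma adjusted p = 0.00035 and 0.0011). The 4 pools lay between -1.46 and -1.13, and VP2.2 did not stand apart for this difference.

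Abat (ENSMUSG00000057880; chromosome 16, 8513429 to 8621568), which encodes the first enzyme of GABA breakdown, was abundant in both fractions. The TRAP libraries held 483, 670, 435 and 501 CPM and the INPUT libraries 440, 208, 483 and 431 CPM. The fractions overlapped, with TRAP above INPUT in 3 of 4 pools and by a wide margin in VP2.2 alone. The means were 522 ± 102 CPM in TRAP and 390 ± 123 CPM in INPUT (SD, n = 4), and the difference of 0.47 (95% interval with the block -0.13 to 1.08) was not called (limma adjusted p = 0.15 without and 0.22 with the block; exact permutation p = 0.143). Without VP2.2 it was 0.07 (limma adjusted p = 0.59 without and 0.80 with the block).

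Aldh5a1 (ENSMUSG00000035936; chromosome 13, 24907579 to 24937661, minus strand), whose product completes the entry of GABA carbon into the tricarboxylic acid cycle, was the member higher in TRAP. The TRAP libraries held 69.9, 95.8, 77.5 and 83.9 CPM, and the INPUT libraries 43.4, 20.3, 39.8 and 44.6 CPM. All TRAP libraries exceeded all INPUT libraries (exact permutation p = 0.029). The mean was 81.8 ± 11 CPM in TRAP and 37.0 ± 11.4 CPM in INPUT (SD, n = 4), a 2.30-fold rise, with a difference of 1.2 (standard error 0.24 without and 0.26 with the block; limma adjusted p = 0.0025 and 0.0035). The differences were 0.69, 0.96 and 0.91 in VP1.6, VP2.6 and VP2.11 and 2.24 in VP2.2, and without VP2.2 the mean difference was 0.85 and the gene was still called (limma adjusted p = 0.0012 without and 0.0067 with the block). Antisense or divergent transcripts overlap 14.1% (4932702P03Rik) and 3.59% (9330162012Rik) of its exon bases, and neither was among the genes measured.

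**Figure D1:**
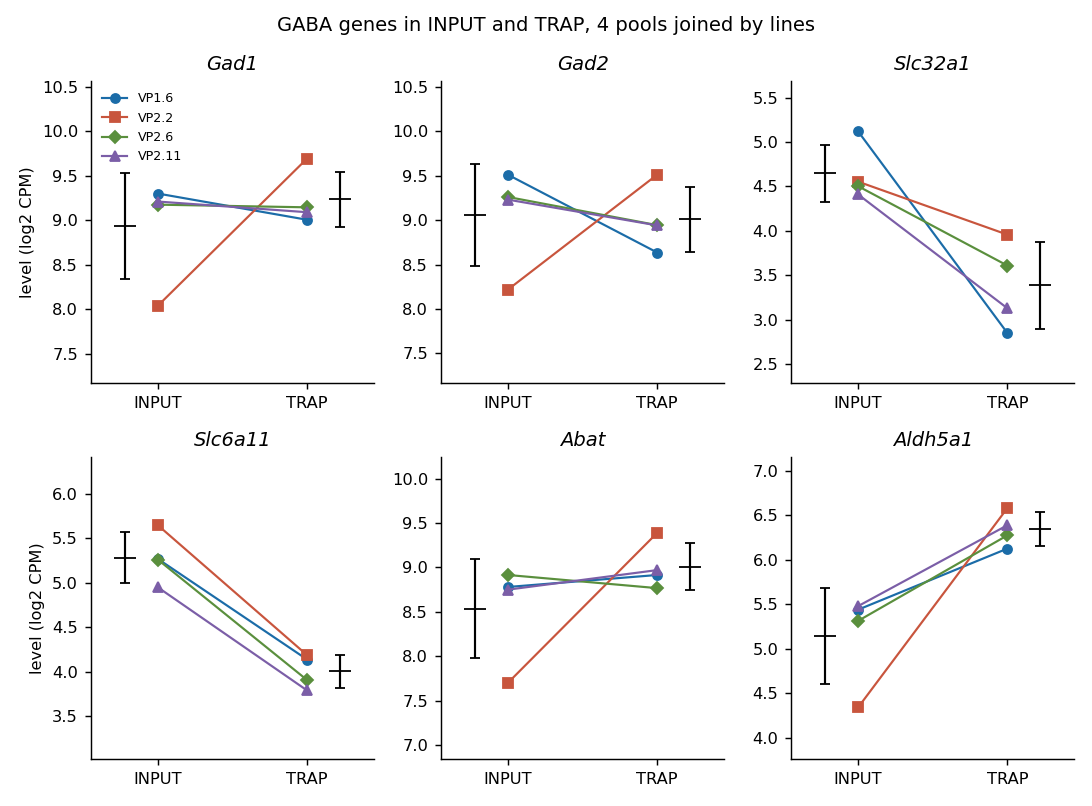
Level of each GABA gene (log2 CPM, vertical axes of equal span) in the INPUT and TRAP libraries; each line joins the 2 libraries of a pool, and bars beside the points give the mean ± SD over 4 libraries. Slc32a1 and Slc6a11 fell and Aldh5a1 rose in every pool, and the lines of Gad1, Gad2 and Abat in VP2.2 run against or steeper than those of the other pools.

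**Figure D2:**
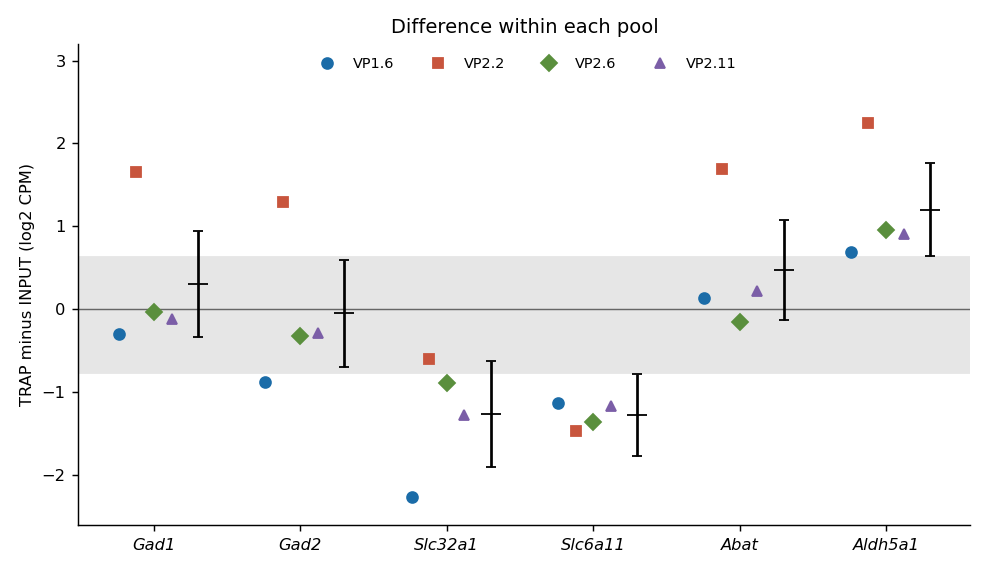
TRAP minus INPUT (log2 CPM) for each GABA gene, with 1 point per pool, and the mean with the 95% interval of the limma fit with the block at the right of each group; the grey band is the interquartile range of all 14249 genes, averaged over pools. The intervals of Gad1, Gad2 and Abat include 0, whereas those of Slc32a1, Slc6a11 and Aldh5a1 do not.

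VP2.2 held the widest departures of Gad1, Gad2, Abat and Aldh5a1. As deposited, these were larger in its INPUT than in its TRAP library. The libraries of VP2.2 deviated in opposite directions across genes (r -0.661), so how a departure splits between them is uncertain. In INPUT VP2.2, Gad1, Gad2, Abat and Aldh5a1 deviated from the mean of the other 3 INPUT libraries by -1.19, -1.12, -1.11 and -1.07 on the log2 scale, whereas Slc32a1 was at -0.12 and Slc6a11 at 0.49. In TRAP VP2.2 all 6 genes lay above the mean of the other TRAP libraries, by 0.24 (Slc6a11) to 0.76 (Slc32a1). Both libraries of VP2.2 also deviated with gene length over all genes. The median deviation of INPUT VP2.2 ran from 0.39 for genes with up to 2 kb of exon to -0.40 for genes over 8 kb (rank correlation with length -0.54 over 14249 genes, themselves no replicates), and that of TRAP VP2.2 ran from -0.37 to 0.18 (rank correlation 0.35). The 4 genes that were low in INPUT VP2.2 have 5.65 to 7.75 kb of exon. In that library the median deviation was -0.09 for genes of 4 to 6 kb and -0.23 for genes of 6 to 8 kb. Slc6a11, with 5.05 kb, was high in it. In TRAP VP2.2 the shortest of the 6, Slc32a1 with 2.8 kb, had the largest deviation, and the median for genes of 2 to 4 kb was -0.09. Marker lists of other cells were also high in TRAP VP2.2, with median deviations of 0.72 for medium spiny neuron, 0.43 for interneuron, 0.55 for astrocyte, 0.56 for oligodendrocyte and 0.56 for microglia markers, against -0.39 for glutamatergic, -0.36 for pan-neuronal and -1.16 for endothelial markers. The part of length and of these markers in the VP2.2 values was not tested.

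**Figure D3:**
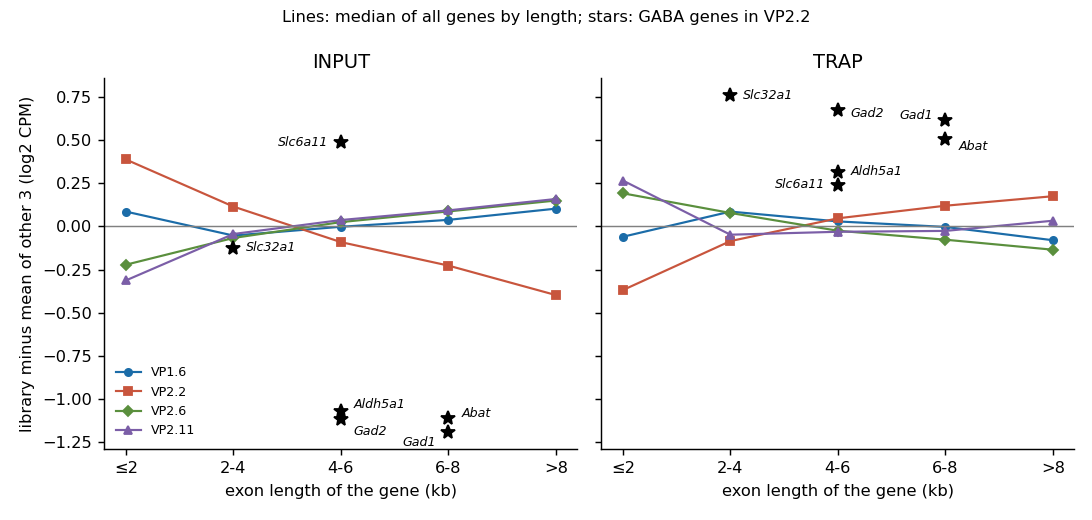
Deviation of a library from the mean of the other 3 libraries of its fraction (log2 CPM) against exon length in kb; lines are medians of all genes per length class and pool, and stars are the 6 GABA genes in VP2.2. In INPUT VP2.2 the stars of Gad1, Gad2, Abat and Aldh5a1 lie below the line for genes of their length, near -1.1, and in TRAP VP2.2 all 6 stars lie above it.

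Comparing genes within a pool takes out what a library shares between them. It does not take out a deviation that depends on exon length. Gad1 has 7.64 kb of exon, Gad2 5.88 kb and Slc32a1 2.8 kb. The difference of Gad1 exceeded that of Slc32a1 by 1.97, 2.25, 0.86 and 1.16 in the 4 pools, in the order used above, and the difference of Gad2 exceeded it by 1.39, 1.89, 0.58 and 0.99. Transcripts for GABA synthesis and for its packaging thus differed in their TRAP minus INPUT difference in 4 of 4 pools, a comparison for which no p was computed. With the exon-length trend removed from the pool differences, the mean differences were -0.03 for Gad1, -0.26 for Gad2 and -1.13 for Slc32a1. Put as log2 ratios of CPM, Gad1 to Slc32a1 was 5.85 ± 0.27 in TRAP and 4.28 ± 0.60 in INPUT (SD, n = 4), and Gad2 to Slc32a1 was 5.62 ± 0.22 and 4.41 ± 0.53. The 2 decarboxylases also differed slightly. Gad1 minus Gad2 was 0.37, 0.18, 0.20 and 0.15 in TRAP and -0.21, -0.18, -0.09 and -0.02 in INPUT on the log2 CPM scale, a contrast that was picked out after its values were seen and was given no test. In each library, VP2.2 included, the levels of Gad1 and Gad2 differed by at most 0.37 on that scale.

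The uptake and breakdown genes also differed among themselves. Within pools, Abat exceeded Slc6a11 in its difference by 1.21 to 3.15 and Aldh5a1 exceeded Abat by 0.55 to 1.11, each in 4 of 4 pools. Averaged over their 3 genes, the uptake and breakdown group had differences of -0.10, 0.82, -0.18 and -0.01, and the synthesis and packaging group had -1.15, 0.78, -0.41 and -0.56. The first group lay above the second in 4 of 4 pools, by 0.04 in VP2.2 to 1.04 in VP1.6. The means were 0.13 ± 0.47 and -0.34 ± 0.81 (SD, n = 4 pools), so each group's mean was smaller than its spread between pools. The neuronal transporter gene Slc32a1 and the astrocytic transporter gene Slc6a11 both fell, with differences that differed from each other by -1.14 to 0.87 within pools and by a mean of 0.02 ± 0.87 (SD, n = 4).

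For the order of levels between genes, CPM was divided by the exon length of the gene in kb. In TRAP, Gad2 (89.8 ± 24.1 CPM per kb), Gad1 (80.3 ± 19.0) and Abat (67.4 ± 13.2) came first, with overlapping ranges. Aldh5a1 followed at 14.5 ± 1.94 CPM per kb, apart from both neighbours, and Slc32a1 (3.91 ± 1.33) and Slc6a11 (3.2 ± 0.41) came last and overlapped. In INPUT the order was Gad2 (95.3 ± 31.4 CPM per kb), Gad1 (67.5 ± 22.3), Abat (50.4 ± 15.9), Slc32a1 (9.13 ± 2.22), Slc6a11 (7.82 ± 1.58) and Aldh5a1 (6.56 ± 2.01), and of these neighbours only Abat and Slc32a1 did not overlap. Aldh5a1 therefore moved from the last place in INPUT to the fourth in TRAP, although it overlapped its neighbours in INPUT. With the length of the longest transcript in place of all exons, Gad1 and not Gad2 led in both fractions.

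Beside the gene that drives Cre, the decarboxylases stayed high in TRAP. Slc17a6 had 26.5 ± 2.52 CPM per kb in TRAP and 4.80 ± 1.91 in INPUT (SD, n = 4). In TRAP, Gad1 was above Slc17a6 by 1.58 ± 0.43 and Gad2 by 1.73 ± 0.49 on the log2 scale per kb, in 4 of 4 libraries, whereas Slc32a1 was below it in 4 of 4, at -2.82 ± 0.62. In INPUT all 3 were above Slc17a6, Gad1 by 3.82 ± 0.36, Gad2 by 4.33 ± 0.42 and Slc32a1 by 0.99 ± 0.74. Per length of the longest transcript, Gad1 was above Slc17a6 in TRAP by 2.28 ± 0.43 and Gad2 by 1.38 ± 0.49, and in INPUT Slc32a1 was above it in 3 of 4 libraries only, by 0.60 ± 0.74 with overlapping ranges.

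**Figure D4:**
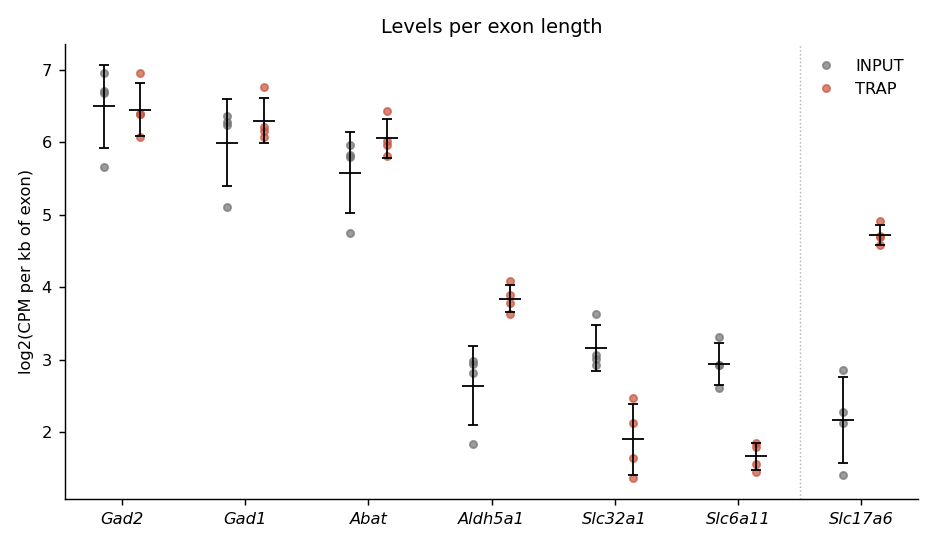
Level per exon length, log2(CPM per kb), of the 6 GABA genes and, right of the dotted line, of Slc17a6; grey points are INPUT and red points TRAP libraries, and bars are the mean ± SD over 4 libraries. Gad2, Gad1 and Abat lead in both fractions, and Slc17a6 lies between Abat and Aldh5a1 in TRAP.

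The libraries were checked with marker lists, and the TRAP fraction matched its label in part. Of 6 glutamatergic markers, 5 rose in TRAP in both fits, with a median difference of 2.52, and of 7 pan-neuronal markers 6 rose and 1 fell without the block and 4 rose with it (median 0.78). Markers of other cells fell: 7 of 9 medium spiny neuron markers (median -1.4, with summed levels of 625 to 1052 CPM in TRAP and 1500 to 2264 CPM in INPUT), 8 of 11 GABAergic lineage and interneuron markers (median -1.69, 165 to 239 and 458 to 851 CPM), 7 of 10 astrocyte markers (median -1.39, 1482 to 1913 and 2069 to 2510 CPM), 7 of 8 oligodendrocyte markers (median -1.62, with the other 1 higher) and 7 of 8 microglia markers (median -2.19). With the block these counts were 7, 7, 7, 7 and 5, no oligodendrocyte marker was higher, and the median over all genes was -0.05. These markers were reduced and not at 0: only Tmem119 of the microglia list averaged under 1 CPM in TRAP. Of 3 endothelial markers, 1 rose without the block and 2 with it, with pool medians of 2.57 in VP1.6, -0.14 in VP2.2, 0.19 in VP2.6 and 2.97 in VP2.11. Against these lists, the differences of Gad1, Gad2, Abat and Aldh5a1 lay above the medians of the medium spiny, interneuron and astrocyte markers in 4 of 4 pools. Those of Gad1, Gad2 and Abat lay below the glutamatergic median in 4 of 4 pools and below the pan-neuronal median in 3. Aldh5a1 lay below the glutamatergic median in 3 pools and below the pan-neuronal median in 2. Gad1, Gad2, Abat and Aldh5a1 lay above the median of all genes in 2, 1, 3 and 4 pools. Slc32a1 lay above the medium spiny median in 2 and below it in 2, and Slc6a11 lay above the astrocyte median in 2 and below it in 2. Whether GABA transcripts in TRAP came from tagged cells or from RNA of other cells was not tested.

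Beyond the 6 genes, 18 further genes of the GABA and glutamine cycle were listed. Of these, Slc6a12 was absent, Slc38a5 missed the filter, and 16 were tested. Without the block 5 were higher and 4 lower in TRAP, and with it 3 were higher and 4 lower, with a median difference of 0.02. Set against the 23.2% higher and 24.8% lower (15.4% and 16.8% with the block) over all genes, these counts do not set the list apart. On the supply side, Slc38a1, a neuronal glutamine transporter, rose from 97.6 ± 26.6 to 249 ± 25.8 CPM (SD, n = 4, difference 1.39, limma adjusted p = 0.0004 without and 0.00062 with the block). Glul, the astrocytic glutamine synthetase, fell from 351 ± 15.7 to 173 ± 21.7 CPM (difference -1.02, limma adjusted p = 0.00021 and 0.0022). The glutamine transporter Slc38a2 differed by 0.54 and was called without the block only (limma adjusted p = 0.0054 and 0.07).

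Among the transporters that clear GABA, Slc6a13 (GAT2) fell from 9.10 ± 1.42 to 1.17 ± 0.45 CPM (SD, n = 4, difference -3.03, limma adjusted p = 0.00011 and 0.00025), close to the 1 CPM of the filter.

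The enzymes of side routes were mixed. Maob, a monoamine oxidase that also serves the synthesis of GABA from putrescine, rose from 35.5 ± 6.05 to 67.4 ± 10.8 CPM (SD, n = 4, difference 0.93, limma adjusted p = 0.0015 and 0.007). Aldh9a1, an aldehyde dehydrogenase of the same route, differed by 0.55 and was called without the block only (limma adjusted p = 0.014 and 0.075), and Aldh1a1, which can form GABA without the decarboxylases, fell from 30.6 ± 3.27 to 11.5 ± 4.30 CPM (difference -1.51, limma adjusted p = 0.0022 and 0.0013). Adhfe1, which oxidises gamma-hydroxybutyrate, fell from 23.0 ± 1.74 to 9.96 ± 2.5 CPM (difference -1.25, limma adjusted p = 0.00089 and 0.0027). Pdxk, a kinase that acts on the precursors of the decarboxylase cofactor, differed by -0.005 and was not called, nor were Slc38a3, Gls2, Glud1 and Akr7a5.

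**Figure D5:**
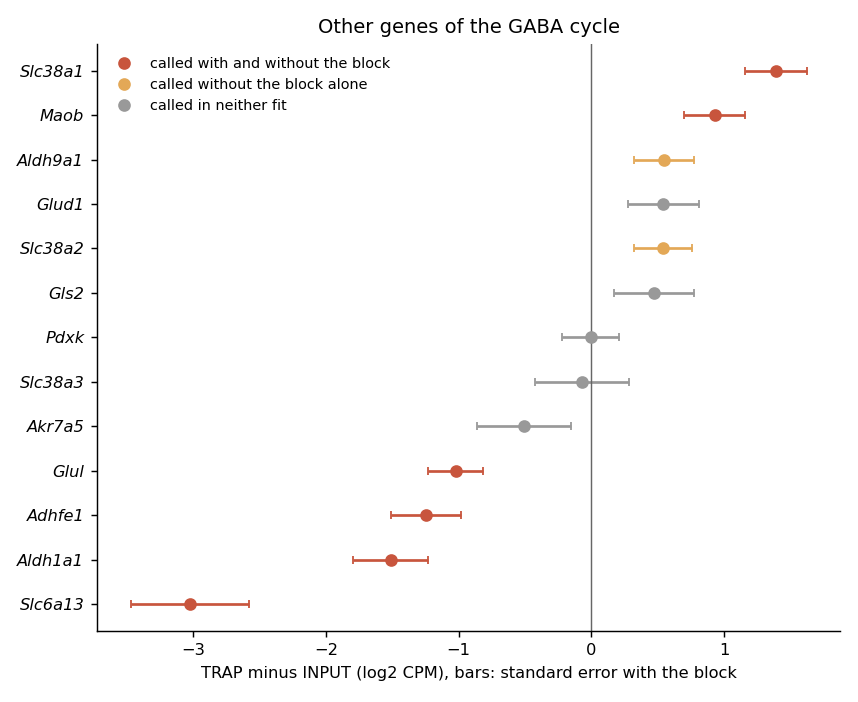
TRAP minus INPUT (log2 CPM) of the other genes of the GABA cycle reported here, sorted, with the standard error of the limma fit with the block. Colour gives whether the gene was called in both fits, without the block alone, or in neither. Among these, Slc38a1 lies furthest up at 1.39 and Slc6a13 furthest down at -3.03.

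The genes whose levels followed each GABA gene most closely over the 8 libraries were sought among all genes tested, as a description. For Gad1 these were Nbea, Arhgap20 and Slc4a4 (Pearson's r 0.9915, 0.9914 and 0.9873), and for Abat they were Ttbk2, Akap6 and Mgea5 (0.9951, 0.9944 and 0.9924). For Gad2 they were N4bp1, Phkb and Cacna2d3 (0.9794, 0.9776 and 0.9752). Slc32a1 was followed by Rfx4, Cth and Ecel1 (0.9982, 0.9921 and 0.9920) and Slc6a11 by Ttyh2, Gng7 and Ss18l2 (0.9974, 0.9962 and 0.9945). Aldh5a1 was followed by Zfp292, Dync1li2 and Atp8a1 (0.9996, 0.9989 and 0.9988). No gene appeared for more than 1 of the 6. All 8 libraries share the split by fraction and, in pairs, a pool, and high values of r arise among so many genes.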

How the data were processed

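RNA of 4 TRAP and 4 INPUT libraries was sequenced. The authors aligned reads with STAR 2.5.1a to an Ensembl mouse assembly, counted unambiguous reads per gene with featureCounts, scaled libraries by TMM in edgeR and used limma with voom. Values for each library were deposited by the authors as log2 CPM. Beside these stand in the deposited table columns of the authors' own comparison (log2 fold changes, p-values, scores and a fold change) and a count of transcripts per gene, none of which was used. Groups came from the sample titles.

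Of 14398 rows, 45 repeats were left out. The filter kept genes above 1 CPM in 3 or more libraries. TRAP and INPUT were compared on the deposited log2 scale by limma 3.58.1 (lmFit, eBayes with trend) in R 4.3.3, and single genes with exact permutation tests (scipy 1.17.1, Python 3.11.15). Both libraries of a pool came from 1 homogenate, so pools pair them. Libraries of a pool deviated oppositely (r -0.745 to -0.495 across genes, against 0.0457 to 0.441 between pools). Positions and exon lengths came from GENCODE M21 (GRCm38), matched by identifier for all 14353 genes. Depth was estimated from whole-read steps within pools (tolerance 1e-06), as about 12.5 M (TRAP) and 37.9 M (INPUT) in VP2.2. In VP2.6 it was about 12.6 M and 24.9 M. These are library sizes on the scale of the deposited values and not counts of sequenced reads, so read numbers derived from them are approximate. Depth is unknown for VP1.6 and VP2.11, whose values are partly rounded. A count test was not run, because the steps show only within pools and not for single libraries. The 3 genes most like each member were named by Pearson's r, other cycle genes when past the threshold in either fit (some are counted in the list but not reported here), and markers by list. The members and lists were chosen with earlier results of these data known. Alternatives covered the block, array weights, variance trend, filter, pseudocount, centring, quantile scaling, length trend and pools left out.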

Additional observations from a re-analysis of the deposited data

Results flagged for a closer look

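In 4 cases, single libraries stood far from the others of their fraction by Dixon's test. Gad1 was at 8.04 log2 CPM in INPUT VP2.2, against 9.18 to 9.30 in the other INPUT libraries. Abat was at 7.70 log2 CPM in the same library, against 8.75 to 8.92, and Aldh5a1 at 4.34, against 5.31 to 5.48. Aldh9a1 was at 6.13 log2 CPM in TRAP VP2.11, against 5.53 to 5.62. Chance flags about 1 in 20 such groups, so 1.5 of the 30 groups examined would be expected, and 4 were found. Flags were more common in these 2 libraries over all genes. INPUT VP2.2 was far low for 3.17% of genes and TRAP VP2.11 far high for 2.01%. Genes that vary together are also not independent, so 4 against 1.5 is no measure of an excess. The 3 in INPUT VP2.2 share a library, whose deviation with gene length is given with the VP2.2 values of these genes. The part of length in these flags was not tested. Gad2 was low in INPUT VP2.2 too but did not pass Dixon's test.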

How the results depend on the processing

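Slc6a11, Abat and Aldh5a1 kept their direction and their side of the threshold in 16 of 16 alternatives, with differences of -1.43 to -1.16, 0.07 to 0.68 and 0.85 to 1.37 and limma adjusted p-values of 2.1e-05 to 0.022, 0.11 to 0.80 and 0.00029 to 0.039. The replicate block, with pools paired, changed no call on the 6 genes. It lowered the number of genes called from 6830 to 4592 and took the other cycle genes from 9 to 7. With 1 library of each fraction in each pool, the block cannot change a difference. The differences thus stayed at 0.30 for Gad1, -0.05 for Gad2, -1.26 for Slc32a1, -1.28 for Slc6a11, 0.47 for Abat and 1.2 for Aldh5a1. The filter and variance-trend alternatives cannot change a difference either, so all of these bear on calls and not on direction. With the replicate block and the exon-length trend removed, Gad1 turned to -0.034, Slc32a1 was -1.13 and no longer called (limma adjusted p = 0.064), and 3238 genes were called. With the replicate block and VP2.2 left out, an alternative added once the data had been seen, Gad1 was -0.15 and 4156 genes were called, and requiring a log2 difference of 1 or more in either direction left 3528 genes. With 1 pool left out in turn, Gad1 ran from -0.15 to 0.50 and Gad2 from -0.49 to 0.23; only without VP2.2 was Gad2 called (limma adjusted p = 0.016). Array weights without the block were lowest for TRAP VP2.11 (0.226) and INPUT VP2.2 (0.336). With them Gad1 was 0.0016, Gad2 -0.36 and Abat 0.11, and none of these was called (limma adjusted p = 0.99, 0.11 and 0.60). Of the 12 levels per kb, 6 moved by over 1 SD with the longest transcript. Depth is known for 4 libraries only.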
